A study of Mus musculus with 26 samples.

Results

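In sorted supporting cells of the neonatal mouse cochlea, 571 genomic regions carried a peak of histone H3 lysine 27 acetylation (H3K27ac) in both control libraries and in none of the 4 libraries from cells treated with DAPT. They were found by merging the peaks of 6 deposited H3K27ac peak lists wherever they overlapped by 1 bp on chromosomes 1 to 19 and X, which gave 232378 merged regions. The 571 members are 2.96% of the 19286 regions with a peak in both control lists. They were chosen by the presence or absence of deposited peaks, so their H3K27ac values are a description and nothing is tested on them. All cells came from cultured cochleae of postnatal day 1 mice, kept with DAPT or with DMSO alone, digested with trypsin and sorted by fluorescence. At 48 h every group carried the marker Lfng-CreET/TdT, a red reporter switched on by a Cre driven from Lfng, a gene of supporting cells, so a group holds only the supporting cells that this driver labels. Control cells came from DMSO cultures, and nonpermissive cells from DAPT cultures, both listed with that marker. Permissive cells came from DAPT cultures and are listed with Atoh1-GFP as well, a reporter of the hair cell factor Atoh1. H3K27ac (by CUT&RUN with an antibody) and open chromatin (ATAC) were each measured in 2 samples per group at 48 h. RNA was measured at 48 h in 2 control, 3 nonpermissive and 3 permissive samples, and at 24 h in 3 DMSO and 3 DAPT samples sorted for Lfng-GFP alone. Whether the samples of a group came from separate animals is not stated, so p-values reflect only sample-to-sample spread, part of which may be technical.

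H3K27ac is placed by acetyltransferases on nucleosomes at active promoters and enhancers, and it is lost as these elements are switched off. Supporting cells surround the hair cells and are prevented from becoming hair cells by Notch signalling: ligands on hair cells activate Notch receptors on their neighbours, and the freed intracellular domain of Notch joins the DNA-binding protein RBPJ and Mastermind co-activators to switch on repressors of the Hes and Hey families. DAPT inhibits gamma-secretase, the protease that frees this domain. In young cochleae some supporting cells then switch on Atoh1 and take on hair cell features.

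The 6 H3K27ac lists differed in length and in how much genome they covered, and a missing peak depends on both. The control lists held 57698 and 55254 peaks over 26.9 and 24.7 Mb. The nonpermissive lists held 93854 and 46148 peaks over 79.2 and 22.5 Mb, and the permissive lists 114527 and 72280 peaks over 87.6 and 27.1 Mb. The peaks of nonpermissive replicate 1 carry names numbered 2, as those of replicate 2 do, although both lists differ in length, so whether its label is right cannot be told from the files. The member count, the ATAC difference and the counts of linked genes are given with and without it. How many reads lie behind each peak list is unknown. Total counts per RNA library ranged from 2165338 to 4896374 at 48 h, and from 10666050 to 13158897 at 24 h. Of a list of 20 supporting cell and prosensory markers (Sox2, Jag1, Lfng and others) none was at 0 in any group, and their summed level was 9932 to 16162 CPM (counts scaled to library size) in control, 8161 to 13670 in nonpermissive and 2265 to 3712 in permissive libraries. A list of 15 hair cell transcription factors summed to 452 to 778 CPM in control cells, where Barhl1, Insm1, Neurod1 and Neurod6 were at 0, and to 3862 to 5155 CPM in permissive cells.

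Of the 571 members, 41 came within 1 kb of an annotated gene start. At 24 h 22 of their genes were tested and 11 fell (50%, against 14.2% of all genes), as described further on. Of those 11 genes, 3 hold the RBPJ core motif in the window from 250 bases before to 50 bases after the start. They lie at chr4:154960673-154960922 (Hes5, plus strand), chr8:107403206-107403455 (Nqo1, minus strand), chr5:88887010-88887259 (Slc4a4, plus strand) and, for a gene with a member at its start and no match, chr15:93519521-93519770 (Prickle1, minus strand). These 250 bases upstream of each start are printed 5′ to 3′ on the gene's strand from RefSeq (GRCm38.p6, the mm10 build of the files). Capitals mark the core TGGGAA, read on either strand.
Hes5: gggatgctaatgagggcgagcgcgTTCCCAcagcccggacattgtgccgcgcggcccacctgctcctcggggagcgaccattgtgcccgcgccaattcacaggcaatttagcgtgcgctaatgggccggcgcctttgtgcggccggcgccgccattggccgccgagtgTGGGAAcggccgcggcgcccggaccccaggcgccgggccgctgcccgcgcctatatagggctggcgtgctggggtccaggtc
Nqo1: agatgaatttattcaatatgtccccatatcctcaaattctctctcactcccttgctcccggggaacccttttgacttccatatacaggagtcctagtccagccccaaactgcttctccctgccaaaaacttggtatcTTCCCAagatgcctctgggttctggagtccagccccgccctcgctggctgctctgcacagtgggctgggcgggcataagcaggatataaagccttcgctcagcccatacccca
Slc4a4: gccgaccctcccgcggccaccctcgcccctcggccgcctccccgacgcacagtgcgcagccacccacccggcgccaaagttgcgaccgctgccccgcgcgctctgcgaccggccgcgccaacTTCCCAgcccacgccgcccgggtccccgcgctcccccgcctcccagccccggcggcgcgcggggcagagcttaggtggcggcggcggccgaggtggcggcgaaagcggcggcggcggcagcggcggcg
Prickle1: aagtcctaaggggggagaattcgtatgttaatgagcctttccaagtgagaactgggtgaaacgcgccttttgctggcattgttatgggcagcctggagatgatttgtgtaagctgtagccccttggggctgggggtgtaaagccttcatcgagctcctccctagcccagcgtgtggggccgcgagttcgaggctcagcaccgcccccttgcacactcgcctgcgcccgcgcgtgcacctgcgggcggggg
Hes5, a repressor induced by Notch, has 2 matches, with first bases 226 and 82 bases before the start. Its member runs from 532 to 155 bases upstream and so contains the distal match and not the proximal one. The Nqo1 member, 519 to 59 bases upstream, contains the match 113 bases before the start. The match of Slc4a4 lies 128 bases upstream, whereas its member lies 807 to 1349 bases downstream of the start. The motif is short: 29.3% of the 41 windows at members and 25.4% of 32585 RefSeq promoter windows of the same length held it on either strand. The 41 windows are set by the gene start, not by the member, and 23 of them overlapped their member. A match is a description of letters, not a bound site.

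Other motifs were searched on both strands in the same windows. TEAD (GGAATG) was in 12.2% of the member windows and 14.6% of all, AP-1 (TGANTCA) in 9.76% and 7.85%, the E-box CAGCTG in 19.5% and 16.4%, the NFI motif TTGGCA in 17.1% and 14.1%, and GFI1 (AAATCA) in 9.76% and 14.0%. SOX (ACAATG) was in 19.5% against 12.2%, that is in 8 of 41 windows. The motif AGATAA of GATA factors was in 4.88% against 11.2%, and the spaced POU4 motif ATNNATTA in 2.44% against 8.66%, or 1 window of 41. TEAD and TGGGAA cores can share bases. Median GC content was 54.3% in the 41 windows and 53.0% over all promoter windows.

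The members were narrower and had weaker control peaks than regions of both control lists as a whole, by their medians. Part of this follows from the rule, since a merged region spans the peaks of all 6 lists and members hold control peaks only. Fold and q are those of the strongest peak in a region, so wider regions can score higher. Their median width was 503 bp (range 295 to 1291), against 1705 bp for all regions of both control lists and 2253 bp for the 8310 regions with a peak in all 6 lists. Over all merged regions the median was 424 bp. The deposited fold enrichment over local background, the authors' value, had a median of 3.42 in control replicate 1 and 3.60 in replicate 2, with highest values of 6.47 and 8.74. Over all merged regions with a control peak the medians were 3.42 and 4.11. These folds took only 11 distinct values in each list, and 67.8% and 51.8% of the members sat at the 3 lowest of them (2.66, 3.04 and 3.42 in replicate 1, and 2.57, 3.09 and 3.60 in replicate 2). The deposited −log10 q had medians of 1.57 and 1.62, and it reached 5 in 1.58% and 2.28% of the members, against 25.2% and 25.7% of all regions of both control lists. When only peaks with −log10 q of at least 5 were kept in all 6 lists, 14 regions met the rule, and these overlapped 2 of the 571.

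**Figure D1:**
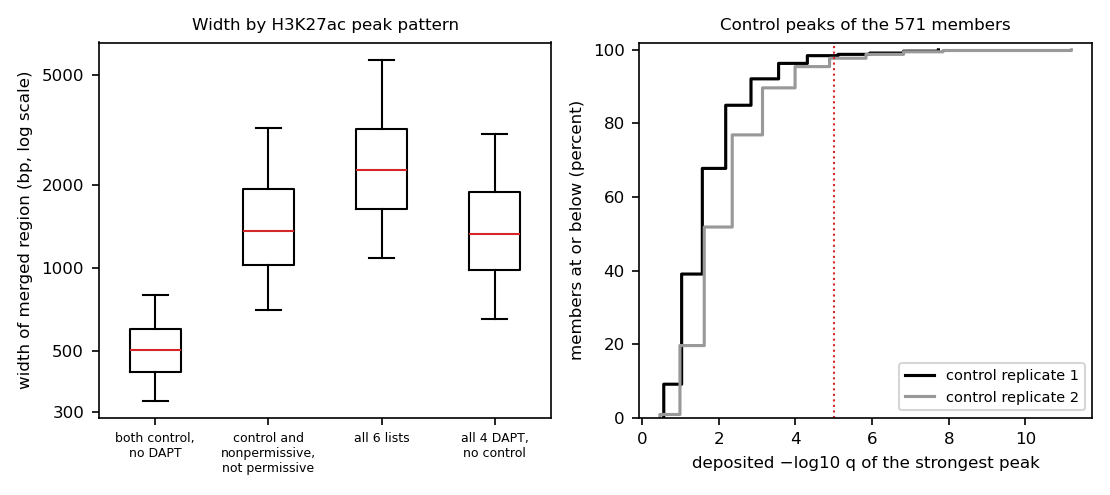
Left, width of merged regions by H3K27ac peak pattern (boxes, quartiles with the median in red; whiskers, 5th to 95th percentile; log axis); right, share of the 571 members at or below each deposited −log10 q in the 2 control lists, with a dotted line at 5. Members are the narrowest of the 4 sets, with a median of 503 bp, and few reach a −log10 q of 5. The other sets also span DAPT peaks, which members lack by the rule.

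Acetylated chromatin of treated cells was often close by. The nearest peak of any DAPT list lay a median of 1624 bp from a member, within 500 bp for 159 members (27.8%), within 1 kb for 230 (40.3%) and within 5 kb for 421 (73.7%). Leaving out members with a DAPT peak within 1 kb kept 341. Just outside the rule were 1906 regions with a peak in both control lists and in exactly 1 DAPT list. For 1546 of them that list was nonpermissive replicate 1, where the peak had a median fold of 5.03 and a median −log10 q of 6.88. For 202 it was permissive replicate 1, for 104 nonpermissive replicate 2 and for 54 permissive replicate 2. The count of members therefore turned on the long nonpermissive list, and without it the rule gave 2326 regions. Without control replicate 1 or 2 it gave 14492 or 14755 regions.

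The members were mostly distal. Annotated starts on chromosome 18 were not used here, which left 544 members with a position relative to genes. Of these, 7.54% came within 1 kb of a start, close to the 7.68% of all merged regions and far below the 34.4% of regions of both control lists and the 56.0% of regions in all 6 lists. Distance was taken from the region's edge, so the wider regions of the latter sets could reach a start more easily. The members' median distance to the nearest start was 20737 bp, and 470 members (86.4%) had one within 100 kb, which linked them to 448 genes. By RefSeq gene spans 401 of the 571 (70.2%) overlapped a gene body, and exons and introns were not analysed here. Chromosome 1 held most members (51, 8.93%, against 7.94% of all regions) and chromosome X the fewest (7, 1.23%, against 1.39%). Of the 41 members at starts, 16 spanned the start, 15 lay upstream and 10 downstream.

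Members were ranked by the smaller of their 2 control folds. The first lay at chr3:87545953-87546534, 3523 bp from the start of Etv3l, with folds of 6.47 and 6.17, and that gene had no RNA count in any of the 14 libraries. The second, at chr9:119053873-119054352, lay 1095 bp downstream of the start of Vill, inside the gene, with folds of 6.09 and 5.66. The third, at chr12:112378576-112379403, had the same pair of folds and lay 26409 bp from E330035G20Rik. The fourth, at chr4:126842776-126843425 with folds of 5.33 and 6.69, lay inside AU040320, 89006 bp from its start. Others of the first 8 lay near Gm14206 (chr11:100286823-100287413), Bend6 (chr1:33931611-33932352, inside Dst), Gm40085 (chr3:87508148-87508772) and Gm31128 (chr13:64343583-64344199, across the start).

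The largest cluster, with gaps of at most 50 kb, held 6 members between chr1:88217337-88217710 and chr1:88284337-88285359, over the end of the Ugt1a genes of bile pigment conjugation, Mroh2a and the flank of Hjurp, which encodes a chaperone of centromeric histone. Mroh2a itself was at 3.93 and 0.571 CPM in the control libraries. A cluster of 3 members lay in and beside Sfi1 on chromosome 11 (from chr11:3103521-3104206 to chr11:3141318-3141639) and had no ATAC peak in any of the 6 lists. Another 3 members lay at Prickle1 on chromosome 15, at its start, 6552 bp inside the gene and 47308 bp away in Pphln1.

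ATAC, which the rule did not use, gave a separate view of the same cells. A peak overlapped 251 members (44.0%) in control replicate 1 and 181 (31.7%) in control replicate 2, 148 (25.9%) and 206 (36.1%) in the nonpermissive libraries, and 82 (14.4%) and 180 (31.5%) in the permissive ones. To allow for the length of each ATAC list, these shares were divided by the share of all 232378 merged regions that overlapped a peak of the same list. The ratio was 1.74 and 1.64 in control, 1.35 and 1.47 in nonpermissive and 0.884 and 1.00 in permissive libraries. Both control values were above all 4 DAPT values, and the permissive pair was the lowest. The mean was 1.69 ± 0.0679 in control (SD, n = 2) and 1.18 ± 0.278 with DAPT (SD, n = 4), a difference of 0.511 with p = 0.133 in an exact two-sided permutation test. With 2 libraries against 4 the smallest p this test can give is 0.0667, so it cannot pass 0.05. Divided instead by the share of regions of both control lists, the difference was 0.104 (exact permutation p = 0.2). With members drawn without H3K27ac control replicate 1, control replicate 2 or permissive replicate 1, it was 0.093, 0.128 and 0.289, and without nonpermissive replicate 1 it was 0.739 (exact permutation p = 0.133). Undivided, the control libraries had 10.9 percentage points more members open than the DAPT libraries, with overlapping groups (exact permutation p = 0.333).

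**Figure D2:**
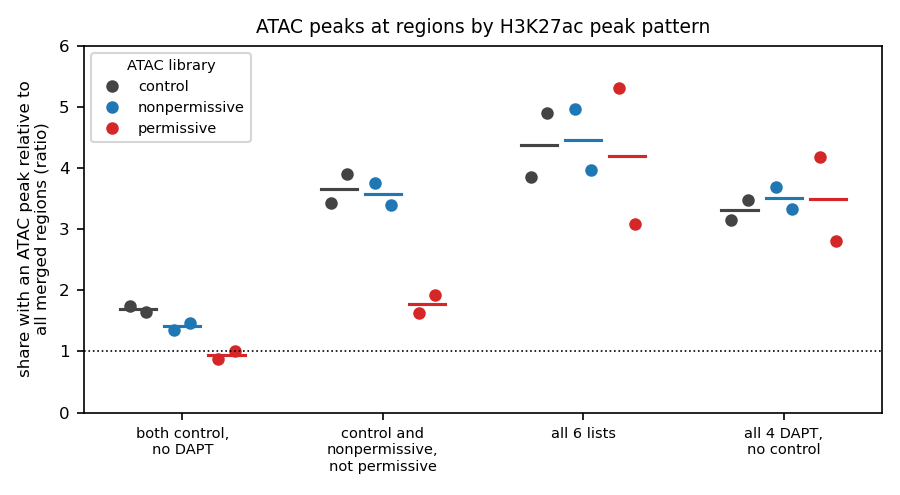
Share of regions with an ATAC peak, divided by the share of all merged regions in the same library, for the 571 members and 3 other H3K27ac patterns (points, libraries; lines, means of 2; dotted line, the level of all regions). At the members the control libraries sit at 1.64 and 1.74 and the permissive ones at 0.884 and 1.00.

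Many members had no ATAC peak at all. No ATAC list had a peak at 233 members (40.8%), against 57.6% of all merged regions and 5.48% of regions of both control lists. Any overlap counted, so the wider regions of both control lists could meet an ATAC peak more easily. All 6 lists had one at 42 members (7.36%). An ATAC peak in both control lists and no DAPT list was found at 12 members, 2.10% against 0.413% of all regions and 0.581% of the regions of both control lists. Counting 1 or 2 control lists it was 41 members, 7.18% against 3.24% and 2.24%. The reverse pattern, an ATAC peak in 1 or more DAPT lists and no control list, was seen at 69 members, 12.1%, against 14.4% of all regions and 4.66% of the regions of both control lists. Regions of both control and both nonpermissive but neither permissive H3K27ac list had a control minus DAPT difference of 0.98 (exact permutation p = 0.2), regions of both control lists and exactly 1 DAPT list 0.747 (exact permutation p = 0.133), regions of all 6 lists 0.0494 (exact permutation p = 1) and regions of all 4 DAPT lists and no control list −0.195 (exact permutation p = 0.733). Regions of both nonpermissive lists and no other have no control H3K27ac peak, yet their control and permissive ratios were near those of the members. They were 1.76 and 1.64 in control and 0.798 and 1.06 in permissive libraries (control minus DAPT 0.374, exact permutation p = 0.333). Their nonpermissive ratios, 1.70 and 1.76, lay above the 1.35 and 1.47 of the members. Higher ATAC in control than in permissive libraries was thus seen outside the members too, and the difference between the members and these sets was not tested.

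Of the 12 members open in both control lists alone, the 5 with the strongest control peaks were distal. The region beside E330035G20Rik, described above, was the first of them. The others lay at chr5:75739405-75739781 (63288 bp from Gm32558), chr13:48422726-48423446 (23226 bp from Gm40940), chr14:56690507-56691210 (inside Mphosph8, 9790 bp from Gm16973) and chr4:149921126-149921484 (inside Spsb1, 18483 bp from Gm13070). Of the genes linked to them only Gm16973 passed the count filter. Its RNA was at 4.68 and 3.14 CPM in control, 8.10, 12.6 and 10.6 in nonpermissive and 18.8, 0.335 and 12.1 in permissive libraries. The permissive values lay on both sides of the control values, and the gene was not called (adjusted p = 0.451).

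RNA of the genes nearest to the members was lower in permissive than in control cells more often than RNA of all genes. Of the 448 linked genes 312 had a row in the RNA tables and 201 had enough counts to be tested at 48 h. In permissive against control cells 39 of the 201 fell (19.4%, against 7.28% of all 13411 genes tested) and 6 rose (2.99%, against 5.72%), at an adjusted p under 0.05. The median log2 fold change was −0.55 for the linked genes and 0.06 for all genes. Every permissive library lay below both control libraries for 37.8% of the linked genes tested, against 20.1% of all genes. For nonpermissive libraries it was 16.4% against 10.4%, and for DAPT below DMSO at 24 h 40.6% against 21.7%. Among the 21 tested genes with a member within 1 kb of the start 7 fell. Genes linked to regions of all 6 H3K27ac lists fell in 6.15% of 4388 cases, and those of the set acetylated in control and nonpermissive but not permissive cells in 27.7% of 624.

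The share depended on how the members were drawn. Without H3K27ac nonpermissive replicate 1 in the rule, 152 of 732 linked genes fell (20.8%). Among members with no DAPT peak within 1 kb it was 12 of 103 (11.7%). Without control replicate 1 of the RNA, 25 of 209 linked genes fell (12%, against 4.57% of all genes), and without control replicate 2, 30 of 212 (14.2%, against 4.64%). In bulk RNA, fewer cells of a type and less RNA per cell cannot be told apart. Summed markers of mesenchyme (13 genes, none at 0 in a group, 2 of 12 tested fell) were at 660 to 3446 CPM in control and 233 to 745 in permissive libraries. Markers of Schwann and satellite glia (8 genes, of which Gfra3 was at 0 in control) summed to 513 to 896 and 99.7 to 274 CPM, and those of melanocytes and the stria (9 genes, with Tyr and Dct at 0 in control and Tyr, Dct, Pmel and Kcne1 at 0 in permissive cells) to 234 to 490 and 14.6 to 34.5 CPM, both without overlap. Endothelial markers (10 genes, 2 of 9 tested rose, 0 fell) summed to 21.5 to 66.8 CPM in control and 54.1 to 148 in permissive libraries. Those of blood and macrophages (10 genes, 1 of 7 rose, 0 fell) summed to 42.4 to 63.6 and 60.9 to 257 CPM. Those of spiral ganglion neurons (10 genes, 3 of 8 rose, 1 fell) summed to 712 to 1443 and 514 to 994 CPM. These ranges overlapped. Over all genes 5.72% rose and 7.28% fell. The part of these lists in the results was not tested.

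**Figure D3:**
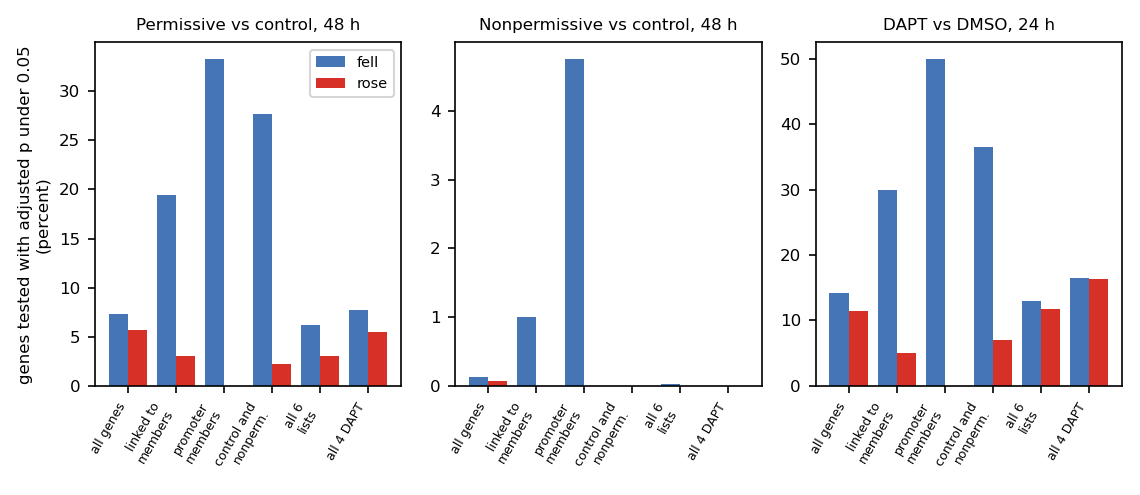
Percent of tested genes that fell (blue) or rose (red) at an adjusted p under 0.05, for all genes, genes linked to the members, genes with a member at the start, and genes linked to 3 other H3K27ac patterns, in each RNA comparison (vertical scales differ). In permissive against control cells 19.4% of the genes linked to members fell, against 7.28% of all genes.

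Of a list of 16 Notch pathway genes, 3 were linked to a member: the target Hes5, the feedback inhibitor Nrarp, also induced by Notch, and the co-activator Maml2. In the whole list 10 of 16 genes fell in permissive cells, where 7.28% of all genes tested fell. In nonpermissive cells 2 of the 16 fell, against 0.127% of all genes. At 24 h, 11 of the 16 fell and 1 rose, against 14.2% and 11.5% of all genes.

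Hes5 RNA was at 298 and 813 CPM in control libraries, 2.23, 0 and 1.92 in nonpermissive and 2.48, 21.1 and 1.62 in permissive ones. Every DAPT library was below both control libraries. The fitted log2 fold change was −6.05 ± 0.96 (SE) in permissive cells (adjusted p = 0.00104) and −8.45 ± 1.10 in nonpermissive cells (adjusted p = 0.00647), and both comparisons share the control libraries. At 24 h Hes5 stood at 1848, 1551 and 1725 CPM with DMSO and 9.54, 3.70 and 5.71 with DAPT (−8.09 ± 0.31, adjusted p = 1.35e-06). The Hes5 member is chr4:154960391-154960768, with control folds of only 3.04 and 3.09 and −log10 q of 1.03 and 0.986. A DAPT peak lay 422 bp from it. Further into the locus every H3K27ac list had a peak downstream of the start, for example 3061 to 3856 bp downstream in nonpermissive replicate 1 and 2737 to 3796 bp in permissive replicate 1. All 6 ATAC lists had a peak overlapping the member. The fold of that ATAC peak was 3.12 and 2.75 in control, 2.99 and 2.87 in nonpermissive and 1.99 and 2.93 in permissive libraries. Control replicate 2 thus lay below both nonpermissive libraries and permissive replicate 2. The −log10 q ran from 13.3 in control replicate 1 to 0.606 in permissive replicate 1.

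Nrarp had 2 members, at chr2:25178110-25179400, 1358 to 2648 bp upstream of the start, and at chr2:25167718-25168225, 12533 bp upstream. The nearer one was the widest of all 571 at 1291 bp, with folds of 5.71 and 3.60. An ATAC peak lay inside it at the same place in both control lists (−2091 to −1853 and −2055 to −1841 bp from the start) and both nonpermissive lists (−2090 to −1841 and −2072 to −1832 bp), and in neither permissive list. Nrarp RNA was at 122 and 12.8 CPM in control, 39.1, 5.14 and 41.6 in nonpermissive and 18.2, 0 and 0 in permissive libraries. The control libraries lay far apart, the second inside the range of the DAPT libraries, and neither 48 h comparison was called (permissive −3.39 ± 1.37, adjusted p = 0.13). At 24 h the values did not overlap, with 210, 157 and 181 CPM in DMSO and 11.3, 11.3 and 10.1 in DAPT libraries, and the RNA fell (−4.06 ± 0.13, adjusted p = 8.05e-07). Maml2, with a member 21196 bp from its start, fell at 24 h by 0.59 on the log2 scale (adjusted p = 0.00615) and was at 54.8 and 23.7 CPM in control against 27, 9.04 and 25.5 in permissive libraries.

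**Figure D4:**
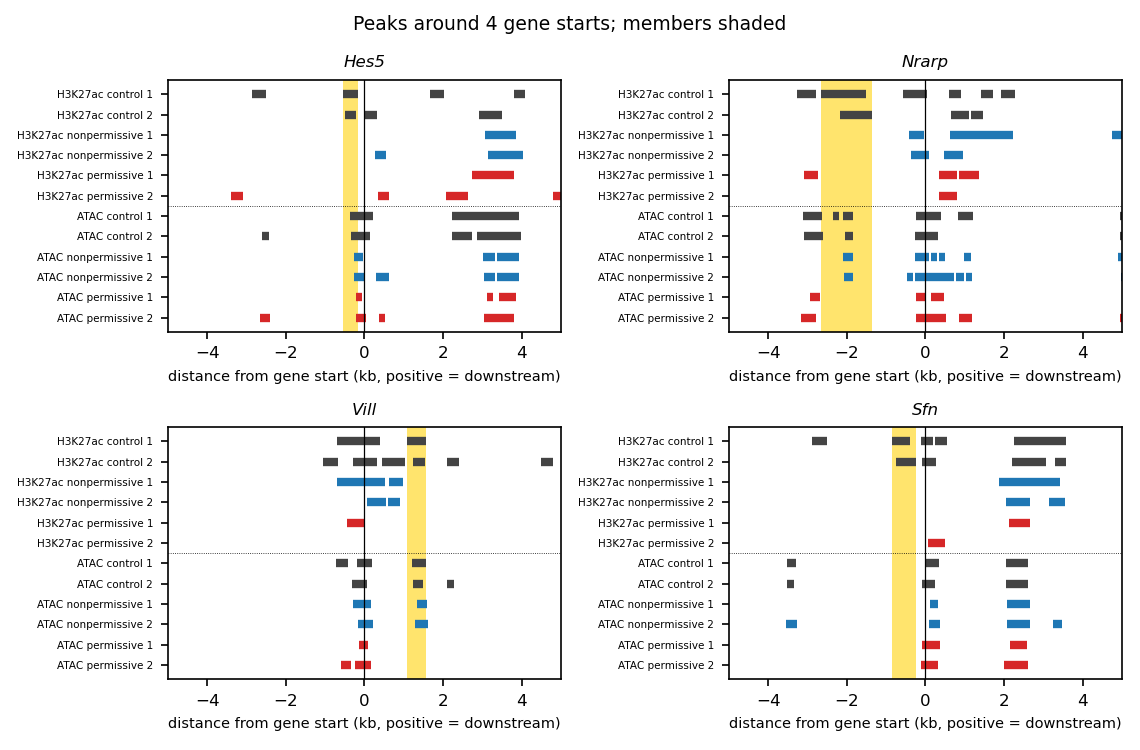
Peaks of each H3K27ac and ATAC library (rows; bars, peaks) within 5 kb of the starts of Hes5, Nrarp, Vill and Sfn, by distance from the start in kb, with members shaded. Within the shading only the control lists have H3K27ac peaks, whereas ATAC peaks of DAPT libraries fall into the shading at Hes5, Nrarp and Vill and not at Sfn.

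Among the genes with a member at the start, 6 besides Hes5 fell in permissive cells, and all 6 fell at 24 h too. Sfn, which encodes the 14-3-3 sigma protein of epithelial cells, has a member 228 bp upstream (chr4:133602396-133603029) with no ATAC peak in any list. It was at 29.5 and 12.3 CPM in control and 0.619, 0.335 and 0.809 in permissive libraries (−5.08 ± 0.91, adjusted p = 0.00233). At 24 h it was at 34.4, 35.7 and 25.8 CPM with DMSO and 1.91, 1.59 and 2.25 with DAPT. Ackr3, an atypical receptor that scavenges the chemokine CXCL12, has a member 781 bp upstream (chr1:90202056-90203199). Its RNA was at 179 and 126 CPM in control, 34.1, 36.5 and 46.7 in nonpermissive and 24.6, 16.7 and 23.9 in permissive libraries. Both DAPT groups lay below the control libraries, and the fall passed the test in permissive cells alone (−2.81 ± 0.45, adjusted p = 0.00109, against −1.96 ± 0.44, adjusted p = 0.139).

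Prickle1, a planar cell polarity gene with 3 members, was at 68.3 and 73.6 CPM in control, 21.5, 5.14 and 10.9 in nonpermissive and 14.2, 24.8 and 18.6 in permissive libraries. It fell in permissive cells (−1.89 ± 0.58, adjusted p = 0.0482) and at 24 h (−1.77 ± 0.18, adjusted p = 0.000166). Ifngr2, a chain of the interferon gamma receptor, has members 618 and 1814 bp into the gene and fell by 2.16 in permissive cells (adjusted p = 0.0198) and 0.80 at 24 h on the log2 scale. Slc4a4, a sodium bicarbonate transporter, was at 10.8 and 7.13 CPM in control, 8.38, 5.14 and 19.2 in nonpermissive and 0.619, 0 and 0.404 in permissive libraries (−4.49 ± 1.04, adjusted p = 0.0112). Mdfi, an inhibitor of MyoD-family factors whose start lies inside its member (chr17:47833049-47833432), fell by 2.31 in permissive cells (adjusted p = 0.0401). In permissive cells, leaving out 1 library ended the call of Prickle1 (adjusted p up to 0.159), Ifngr2 (0.0886), Mdfi (0.166), Sfn (0.0553 without control replicate 1) and Slc4a4 (0.0559 without control replicate 1). Jdp2, Nqo1, Amigo2 and Tmem268 fell at 24 h and were not called at 48 h, and Nqo1 and Amigo2 lost that call too without single libraries. The 24 h call of Mdfi (−0.90, adjusted p = 0.0493) was lost with DESeq2 (0.0501), with upper-quartile scaling (0.053), with the block (0.107) and without any of 5 single libraries (up to 0.16). Ackr3, Slc4a4, Mdfi and these 4 genes were named after their values were seen.

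Distal members lay near several genes with large differences. Fabp7, a lipid-binding protein of glia that marks inner phalangeal and border cells, has a member 21537 bp away (chr10:57762753-57763386). It was at 109 and 58.5 CPM in control, 1.95, 6.28 and 9.92 in nonpermissive and 0, 0.669 and 0.404 in permissive libraries. Fabp7 fell in permissive cells (−7.92 ± 0.98, adjusted p = 0.000217) and at 24 h (−4.47 ± 0.32, adjusted p = 2.35e-05), and in nonpermissive cells −3.79 ± 0.76 did not pass (adjusted p = 0.0755). Sdc1, a heparan sulfate proteoglycan of the cell surface, has a member 17004 bp from its start (chr12:8788400-8788824). With 466 and 719 CPM in control, 86.6, 24.0 and 84.8 in nonpermissive and 52.6, 22.8 and 52.6 in permissive libraries, Sdc1 and Hes5 were the 2 linked genes that fell in both kinds of treated cell at 48 h. The log2 fold changes of Sdc1 were −3.79 ± 0.58 (adjusted p = 0.000838) and −3.18 ± 0.57 (adjusted p = 0.0393), and −2.85 ± 0.16 at 24 h (adjusted p = 7.11e-06).

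Vill, a relative of the actin-bundling protein villin, holds the second strongest member. ATAC peaks lay in that member in both control and both nonpermissive lists and in neither permissive list. Its RNA was at 52.4 and 73.9 CPM in control, 10.6, 12.6 and 8.32 in nonpermissive and 1.44, 4.02 and 6.47 in permissive libraries. The 3 groups did not overlap, but neither nonpermissive against control (−2.59, adjusted p = 0.175) nor permissive against nonpermissive (−1.43, adjusted p = 0.148) was called. The fall was −4.02 ± 0.67 in permissive cells (adjusted p = 0.0014) and −3.40 ± 0.10 at 24 h (adjusted p = 8.05e-07). Kazn, a cytoskeletal gene of epithelia, fell by 4.60 in permissive cells and 2.25 at 24 h on the log2 scale. Lockd, a long noncoding RNA gene, fell by 4.37 and 1.69, and Plekhg1 fell by 3.82 in permissive cells.

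Spock1, a testican proteoglycan with 2 members (chr13:57866940-57867374 and chr13:57905624-57906603), differed between the treated groups. Its RNA was at 1129 and 632 CPM in control, 1968, 831 and 970 in nonpermissive and 174, 115 and 50.9 in permissive libraries. It fell in permissive cells (−2.96 ± 0.56, adjusted p = 0.00337) and was not called at 24 h (0.24 ± 0.15, adjusted p = 0.265). Other genes named after their values were seen also fell in permissive cells: the growth factor Ptn by 3.59, the focal adhesion scaffold Nedd9 by 3.20, the ephrin receptor Epha7 by 2.60, the Groucho co-repressor Tle1 by 2.58 and the small GTPase Rasl11b by 2.49 on the log2 scale. Of these Ptn, Nedd9 and Tle1 fell at 24 h too. The calls of Tle1 (without control replicate 2, adjusted p = 0.0706) and Epha7 (without control replicate 1, adjusted p = 0.083) were lost. Sipa1l1, with 2 members over 54 kb from its start, fell at 24 h by 0.89 (adjusted p = 0.000955) and not at 48 h (adjusted p = 0.0553).

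**Figure D5:**
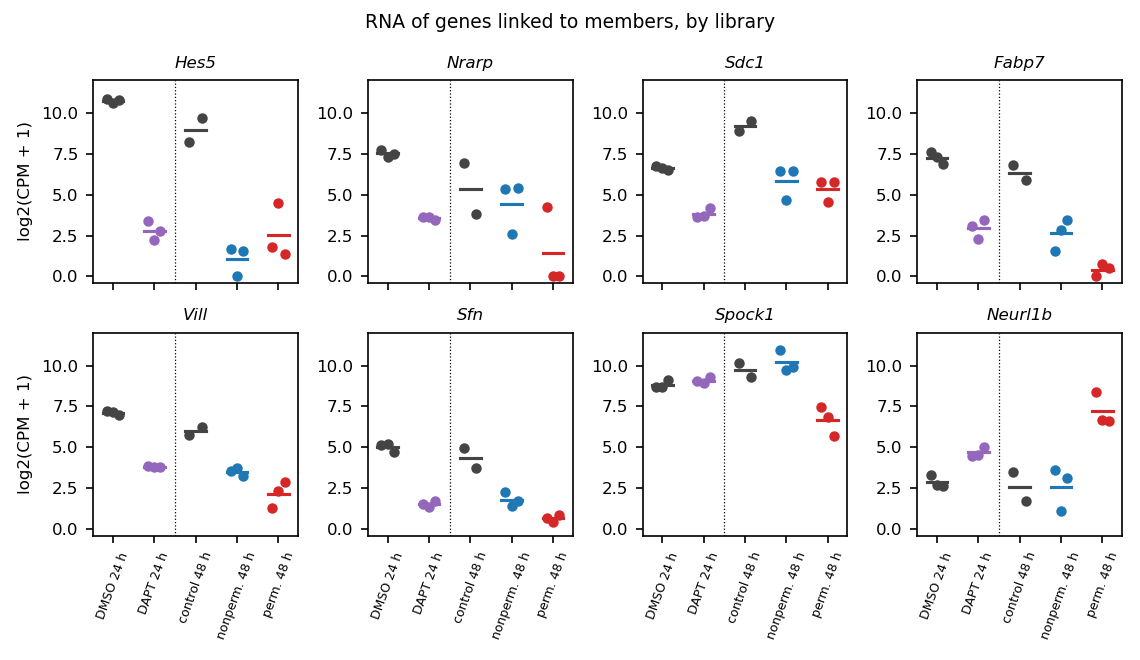
RNA of 8 genes linked to members as log2(CPM + 1) in each library (points; lines, group means), at 24 h left of the dotted line and at 48 h right of it. Hes5, Sdc1, Fabp7, Vill and Sfn are lower in every DAPT-treated library than in every control library of their time point. Spock1 is lower in permissive libraries alone, and Neurl1b is highest in the permissive libraries. Of all genes tested, 20.1% (permissive), 10.4% (nonpermissive) and 21.7% (24 h) lay wholly below the control libraries.

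A few linked genes went the other way. Neurl1b, an E3 ubiquitin ligase that acts on Notch ligands in the cell that sends the signal, was at 10.3 and 2.28 CPM in control, 11.2, 1.14 and 7.68 in nonpermissive and 333, 101 and 95.4 in permissive libraries. It rose in permissive cells (4.78 ± 0.95, adjusted p = 0.00454) and at 24 h (1.94 ± 0.25, adjusted p = 0.000649). Pacc1, a proton-activated chloride channel, rose by 3.36 ± 0.60 in permissive cells and 1.36 ± 0.12 at 24 h. Cacna1d, which encodes the L-type calcium channel of hair cell synapses, was at 8.98 and 11.1 CPM in control and 108, 81.3 and 65.1 in permissive libraries (3.07 ± 0.68, adjusted p = 0.00839). Ypel1 rose by 2.85 ± 0.57 and Ccser2 by 2.32 ± 0.63 in permissive cells. Hdac5, a histone deacetylase, was the sixth gene that rose and is named after its values were seen. Without 1 control library the calls of Cacna1d (adjusted p = 0.0741 or 0.0588), Ypel1 (0.0623 without replicate 1) and Ccser2 (0.232 without replicate 2) were lost, the last also without permissive replicate 1 (0.0731). The members beside these risers had no ATAC peak in any list at Neurl1b, Cacna1d, Ypel1 and Ccser2.

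In nonpermissive against control cells 2 of the 201 linked genes, Hes5 and Sdc1, fell (0.995%, against 0.127% of all genes) and none rose (against 0.0671%). Over all genes 0.194% were called in either direction. At an unadjusted p under 0.05, 14 fell (6.97%, against 3.75% of all genes) and 1 rose (0.498%, against 3.60%), which in either direction is 7.46%, against 7.35% of all genes. DESeq2 called 7 down (3.48%, against 0.574%) and 1 up (0.498%, against 0.574%). With members drawn without H3K27ac nonpermissive replicate 1, 2 of 732 linked genes fell (0.273%). The median log2 fold change was −0.19, against 0.00 for all genes. Without nonpermissive replicate 3 neither was called, and over all genes only 1 then fell and 1 rose. Hes5 kept its call in every other omission, and in this one its fold change was −8.64 (adjusted p = 0.0559). Sdc1 was not called without any 1 control or nonpermissive library. Its adjusted p was 0.109 to 0.132 without a nonpermissive library, and its log2 fold change was −3.46 or −2.89 without a control library. Permissive and nonpermissive cells were also compared directly: 24 of the 201 linked genes were lower in permissive cells (11.9%, against 6.35% of all genes) and 9 higher (4.48%, against 6.78%). With the replicate number as a block, which matches samples of the same number, it was 30 lower (14.9%, against 8.12%) and 10 higher (4.98%, against 7.93%). Nrarp was then lower in permissive cells (−3.17, adjusted p = 0.0414, against −2.17, adjusted p = 0.32). With members drawn without H3K27ac nonpermissive replicate 1, 126 of 732 linked genes were lower (17.2%) and 27 higher (3.69%).

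At 24 h, in other cells and with another library kit, 65 of 217 linked genes tested fell (30.0%, against 14.2% of all 15174 genes) and 11 rose (5.07%, against 11.5%). The median log2 fold change was −0.17, against 0.01 for all genes. With a member at the start 11 of 22 fell. Genes linked to regions acetylated in control and nonpermissive but not permissive cells fell in 36.5% of 657 cases, more often than those of the members. Those linked to regions of all 6 H3K27ac lists fell in 13% of 4550. Of the 39 genes that fell in permissive cells at 48 h, 29 fell at 24 h (74.4% of the former and 44.6% of the latter list), and none rose at 24 h. Over all genes 664 fell in both, 68.0% and 30.8% of the lists. For members without a DAPT peak within 1 kb 28 of 115 genes fell at 24 h (24.3%), and without H3K27ac nonpermissive replicate 1 in the rule 249 of 770 did (32.3%). Markers of inner phalangeal and border cells summed to 3200 to 3562 CPM with DMSO and 2087 to 2617 with DAPT at 24 h, and their part was not tested.

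ATAC at the members was also set beside the RNA call of the linked gene. Of the 43 members linked to a gene that fell in permissive cells, 37.2% and 25.6% had an ATAC peak in the control lists, 25.6% and 27.9% in the nonpermissive lists and 11.6% and 20.9% in the permissive lists. For the 171 members whose gene was tested and did not fall, the shares were 42.1% and 32.2%, 31.6% and 35.7%, and 18.1% and 25.7%. No test was made of this difference.

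Outside Notch, few genes of the fixed lists were linked to a member. In Wnt signalling these were Lgr4, a receptor of R-spondins, and the transcription factor Lef1. Lgr4 fell at 24 h by 0.56 (adjusted p = 0.0112). Lef1, at 0.935 and 21.4 CPM in the 2 control libraries, was not called at 48 h and rose at 24 h by 1.15 ± 0.29 (adjusted p = 0.0199), a call lost without single libraries (adjusted p up to 0.09). In the TGF-beta and BMP list these were Tgif1, a homeodomain repressor, and Id4, an inhibitor of helix-loop-helix factors. Tgif1 fell in permissive cells (−2.25 ± 0.43, adjusted p = 0.00361, and 0.0552 without control replicate 1). Id4 was at 958, 864 and 817 CPM with DMSO and 444, 403 and 536 with DAPT at 24 h and fell (−0.93 ± 0.12, adjusted p = 0.000741). Top2a, a topoisomerase of dividing cells, and Ptprc, the leukocyte marker CD45, were linked and not called. No gene of the hair cell lists (7 Notch ligand and lineage genes, 15 transcription factors, 20 bundle and synapse genes), of the 20 supporting cell and prosensory genes, of 18 matrix and tectorial membrane genes or of 13 mesenchyme genes was linked to a member.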

How the data were processed

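H3K27ac and ATAC peak lists and RNA tables of sorted mouse cochlear cells were used as deposited. Per the submitters' processing notes the tools were Bowtie2, MACS2, UMI-tools, STAR, RSEM and DESeq2, and the build was mm10; no parameters are listed there. The deposited peak lists, 1 per sample, give the authors' fold enrichment and −log10 q for each peak. The deposited RNA tables give the authors' expected counts per gene from RSEM, and TPM, which was not used.

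Peaks were merged across the 6 H3K27ac lists (Python 3.11.15, pandas 2.3.3). Members were linked to the nearest RefSeq start (GRCm38.p6) within 100 kb, and starts on chromosome 18, where 27 members lie, were not used. Expected counts were rounded, filtered (filterByExpr), TMM-scaled and tested by edgeR 4.0.16 quasi-likelihood in R 4.3.3, with Benjamini-Hochberg adjustment over all genes and a threshold of 0.05. The fit was tested on simulated data. All 8 libraries of 48 h entered 1 fit, so both 48 h comparisons share the control libraries. Adjusted p-values in the text are edgeR's unless another test is named. ATAC shares were compared by exact permutation (scipy 1.17.1). Alternatives used DESeq2 1.42.0, other scaling, filters, links and member rules, and a replicate block. Permissive and nonpermissive samples of the same number correlated in their deviations (r = 0.58, 0.15 and 0.13 over 7484 genes). Samples of different number were not compared, so whether the numbers pair these groups was not established. The main fit ignored the numbers, and the block fit used them.

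Named were the 8 strongest members, the 5 strongest open in control ATAC alone and the 3 largest clusters. The genes with most members and all list genes linked to a member were named too. So were the 6 lowest and 4 highest called fold changes per comparison, among linked genes with a mean log2 CPM of at least 4. Other named genes are said to be chosen after their values were seen. The members and lists were chosen with earlier results of these data known. The motif search planned around peak summits was made in RefSeq promoter windows instead, for which sequence was at hand.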

Additional observations from a re-analysis of the deposited data

Results flagged for a closer look

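Of 41 named genes tested, 18 had a fold change against control that differed between permissive and nonpermissive cells, by edgeR's test of the difference itself (adjusted p under 0.05, over all genes). Over all 13411 genes 13.1% were called, but many of the 41 were named for large fold changes in permissive cells or after their values were seen, so the shares are not comparable. The values are permissive minus nonpermissive, on the log2 scale, and each was also called with the replicate number as a block.

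Among genes lower in permissive than in nonpermissive cells, the difference was −3.47 for Spock1 (adjusted p = 0.00101), −4.13 for Fabp7, −2.75 for Kazn, −3.65 for Lockd and −3.70 for Plekhg1. It was −4.77 for Slc4a4, −2.40 for Mdfi, −2.06 for Tgif1, −1.74 for Tle1 and −2.30 for Ptn. For Nedd9 it was −2.87, for Epha7 −3.17 (adjusted p = 0.00087) and for Rasl11b −2.22. In nonpermissive cells none of these 13 genes was called against control.

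The 5 genes higher in permissive cells were Neurl1b (4.66), Pacc1 (3.09), Cacna1d (3.70), Ypel1 (2.74) and Ccser2 (2.64). Hes5, by contrast, was not called between the treated groups (2.39, adjusted p = 0.125), nor was Sdc1 (−0.62, adjusted p = 0.511). Summed hair cell transcription factors were at 587 to 653 CPM in nonpermissive and 3862 to 5155 CPM in permissive libraries, and their part in these differences was not tested.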

How the results depend on the processing

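The set of members depended on the peak threshold and the lists. It held 14 regions with −log10 q of at least 5 in all lists, 2 with that limit in the control lists alone, 341 with no DAPT peak within 1 kb, and 627 to 14755 when 1 H3K27ac list was left out. With the same number of peaks from each list it held 808, and these overlapped 351 of the 571 members (61.5%).

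In permissive cells 39 of 201 linked genes fell (19.4%, against 7.28% of all genes). It was 7 of 21 for promoter members (33.3%), 2 of 6 under the stricter q (33.3%) and 12 of 103 without nearby DAPT peaks (11.7%). Without nonpermissive list 1 it was 152 of 732 (20.8%), and with the nearest tested gene 62 of 334 (18.6%). Without 1 permissive or nonpermissive library it was 35 to 40 (17.4% to 19.9%, against 5.56% to 7.17% of all genes). The values without 1 control library are given above. In nonpermissive cells 2 of 201 fell (0.995%, against 0.127% of all genes). It was 7 of 201 with DESeq2 (3.48%, against 0.574%) and 8 of 266 without a count filter (3.01%, against 0.798%). It was 1 of 21 for promoter members, 0 of 6 under the stricter q and 1 of 103 without nearby DAPT peaks. Without 1 permissive or nonpermissive library it was 0 to 3 (0% to 1.49%, against 0.00756% to 0.198% of all genes). At 24 h 65 of 217 fell (30%, against 14.2% of all genes). It was 11 of 22 for promoter members (50%), 4 of 7 under the stricter q (57.1%) and 28 of 115 without nearby DAPT peaks (24.3%). It was 99 of 327 with equal list lengths (30.3%), 249 of 770 without nonpermissive list 1 (32.3%) and 104 of 341 with the nearest tested gene (30.5%). Without 1 library it was 51 to 74 (23.4% to 33.5%, against 9.48% to 16.5% of all genes). Between permissive and nonpermissive cells 24 of 201 were lower in permissive cells (11.9%, against 6.35% of all genes). Without nonpermissive list 1 it was 126 of 732 (17.2%). The ATAC difference stayed above 0 in every alternative run. Added after seeing the data were, for RNA, the rules on nearby DAPT peaks, equal list lengths, nonpermissive list 1 and the nearest tested gene, and, for ATAC, division by regions of both control lists and members drawn without 1 H3K27ac list or near no DAPT peak.

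With the replicate number as a block, 40 of 201 linked genes fell in permissive cells (19.9%, against 8.67% of all genes). It was 3 of 201 in nonpermissive cells (1.49%, against 0.179%) and 59 of 217 at 24 h (27.2%, against 12.6%). The calls of Prickle1 (permissive, adjusted p = 0.0627), Amigo2 and Mdfi (24 h, 0.0535 and 0.107) were lost with the block. Same-numbered samples of control and permissive cells correlated in their deviations (r = 0.51 and 0.20), those of control and nonpermissive cells less evenly (0.34 and 0.011), and those at 24 h hardly (0.0079, −0.047 and −0.074). With 2 pairs, or r near 0, these numbers are not taken as pairs.

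Leaving out 1 library ended 11 of 25 named calls in permissive cells, 2 of 2 in nonpermissive cells and 4 of 29 at 24 h. The log2 fold change of Lef1 changed sign without control replicate 2 (permissive 0.52, range −4.48 to 0.52; nonpermissive 1.36, range −3.04 to 1.36), and that of Nrarp in nonpermissive cells without control replicate 1 (1.16, range −2.13 to 1.16). Neither was called. The causes were not tested. The planned motif window of 250 bases around summits was not run.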
